A study of Eriobotrya japonica with 9 samples.

Results

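The 157 genes described here were loquat genes on the KEGG map of ubiquitin mediated proteolysis (map04120) that were expressed in leaves. They were taken from 43996 genes in a table of FPKM values. The rule asked for map04120, for neither the plant hormone signal transduction map (map04075) nor the proteasome map (map03050), and for an FPKM of at least 1 in at least 3 of the 9 libraries. Of the 203 genes on map04120, 0 were on either excluded map and 46 were under the FPKM minimum. The rule used an annotation and a level over all libraries, and no difference between groups. Loquat (*Eriobotrya japonica*) is an evergreen fruit tree of the Rosaceae, and the samples were leaves of seedlings on day 10. The MTST group had its roots irrigated with 150 µmol/L melatonin and was then kept under 200 mmol/L NaCl. The ST group had water followed by 200 mmol/L NaCl. The CK group had water alone. Each group had 3 libraries. The study's methods call the replicates of the salt and water treatments biological, from plants first raised by tissue culture, while for MTST no source used here says whether they came from separate plants, so that p-values with MTST measure only the spread between these libraries.

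Ubiquitin is a small protein that is attached to other proteins in a chain of enzyme steps. An activating enzyme (E1) charges it, a conjugating enzyme (E2) carries it and a ligase (E3) chooses the substrate, which is then often degraded by the proteasome. Many plant ligases are single proteins, while others are cullin-RING complexes, in which a cullin scaffold joins a RING protein to an adaptor that binds the substrate. SUMO and NEDD8 are relatives of ubiquitin with their own activating and conjugating enzymes, and attachment of NEDD8 to cullins activates the cullin-RING ligases. In plants these ligases take part in hormone and stress responses. The table gave no gene names, and no sequences were used here, so roles below are those of the GO terms and KEGG maps in the table, and most members are described without an identifier.

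The read totals behind the FPKM values were inferred from the steps between those values. They were 13474045 to 14468499 reads in MTST, 13048770 to 13597345 in ST and 13464774 to 13951747 in CK. The leaf label was checked against the photosynthesis map, whose 69 genes summed to 51002 to 55634 TPM (FPKM rescaled to the same total in every library) in MTST, 36260 to 40556 in ST and 64545 to 69085 in CK, with 65 of the 69 above 0 in some library. The DNA replication map, taken as a marker of dividing cells, summed to 647 to 672 TPM in MTST, 707 to 766 in ST and 488 to 535 in CK over 110 genes, of which 86 were above 0. On TPM both lists moved with the groups, and their part in the results below was not tested. In bulk leaf samples, fewer cells of a type and less RNA per cell cannot be told apart. The choice of scale also mattered for every comparison. On TPM the 23641 genes in the fit had a median log2 fold change of 0.41 for ST against CK, −0.22 for MTST against ST and 0.19 for MTST against CK. After division by median-of-ratios factors (1.16 to 1.21 in ST libraries, 0.97 to 1.03 in MTST and 0.86 to 0.87 in CK), these medians were 0.014, −0.0019 and 0.0086. Counts of calls are therefore given on both scales. With median-of-ratios scaling, 2 of the 63 tested photosynthesis genes were higher and 48 lower in ST than in CK. Of the 48 tested DNA replication genes, 11 were higher and 9 lower on that scale. The background for both was 22.8% higher and 23.4% lower in all tested genes.

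All 157 members passed the minimum of 1 TPM in at least 3 libraries that was set for the fit. Among them 147 were at 1 FPKM or more in all 9 libraries, 3 were under 1 FPKM in every MTST library and 1 in every CK library. The members ran between 1.03 and 302.5 TPM in their mean over the 9 libraries, with a median of 21.3 TPM against 12.7 TPM for all tested genes. Of the members, 17 had a mean under 5 TPM and 28 had a mean over 50 TPM. Their reads per library averaged 9.89 for the least and 11142 for the most sequenced member, with a median of 371, so the members with few reads were measured less precisely. Summed over members, the level was 5231 ± 119 TPM in MTST, 5728 ± 157 TPM in ST and 4579 ± 137 TPM in CK (SD, n = 3 each). On TPM the 3 ST libraries were all above the 3 MTST libraries, and those all above the 3 CK libraries. The median-of-ratios factors, by which TPM is divided, ran in the same order. They were 1.16 to 1.21 in ST, 0.97 to 1.03 in MTST and 0.86 to 0.87 in CK. The sums were not taken on that scale, so this order holds for TPM only. The median coefficient of variation within a group was 8.43% in MTST, 8.05% in ST and 8.90% in CK, while for all tested genes it was 10.8% in MTST, 13.1% in ST and 12.5% in CK.

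The most abundant member, 3834 bases long and annotated to a ubiquitin ligase complex, ubiquitin-protein transferase activity and zinc ion binding, had 269, 224 and 308 TPM in MTST, 340, 244 and 252 TPM in ST and 374, 360 and 352 TPM in CK. Every MTST and ST library was under the lowest CK library, and the share of all tested genes with such a gap was not counted. The second, with no GO term and also on the map of protein processing in the endoplasmic reticulum (ER), had 252, 257 and 278 TPM in MTST, 321, 257 and 289 TPM in ST and 245, 239 and 213 TPM in CK. The third, annotated to ubiquitin-protein transferase activity and also on the ER map, had 196, 206 and 180 TPM in MTST, 160, 210 and 202 TPM in ST and 133, 135 and 131 TPM in CK. Only 8 members had a mean over 100 TPM.

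Whether salt changed these genes was asked by comparing ST with CK. On TPM, most ubiquitin pathway genes were higher in ST, by small amounts. By limma, with an adjusted p (Benjamini-Hochberg) up to 0.05, 108 of the 157 members were higher in ST, or 68.8%, against 52.8% of all tested genes. A further 5 members were lower in ST, or 3.18%, against 10.6% of all tested genes. The median log2 fold change was 0.43 in members, close to the 0.41 of all tested genes. With median-of-ratios scaling the split was nearly even. On that scale 28 members were higher in ST, or 17.8%, against 22.8% of all tested genes, and 27 were lower, or 17.2%, against 23.4%. The 28 were also higher on TPM, the 5 were lower on both scales, and 1 member was higher on TPM and lower with median-of-ratios scaling.

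Large changes were few among the members. A 2-fold change is taken here as 1 on the log2(TPM + 1) scale of the fit, which understates the change of weakly expressed genes. At least 2-fold higher in ST on TPM were 13 members, or 8.28%, against 15.6% of all tested genes, and 1 member was at least 2-fold lower, or 0.637%, against 3.39%. With median-of-ratios scaling, 2 members were at least 2-fold higher, against a background of 8.4%, and 3 at least 2-fold lower, against 7.21%. The quartiles of the members lay at 0.20 and 0.63 on TPM, while those of all tested genes lay at 0.05 and 0.77. The plot of fold changes of members and all tested genes shows this narrower spread in each comparison. Members were also more highly expressed than the tested genes as a whole, and the part of this in the narrower spread was not tested.

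**Figure D1:**
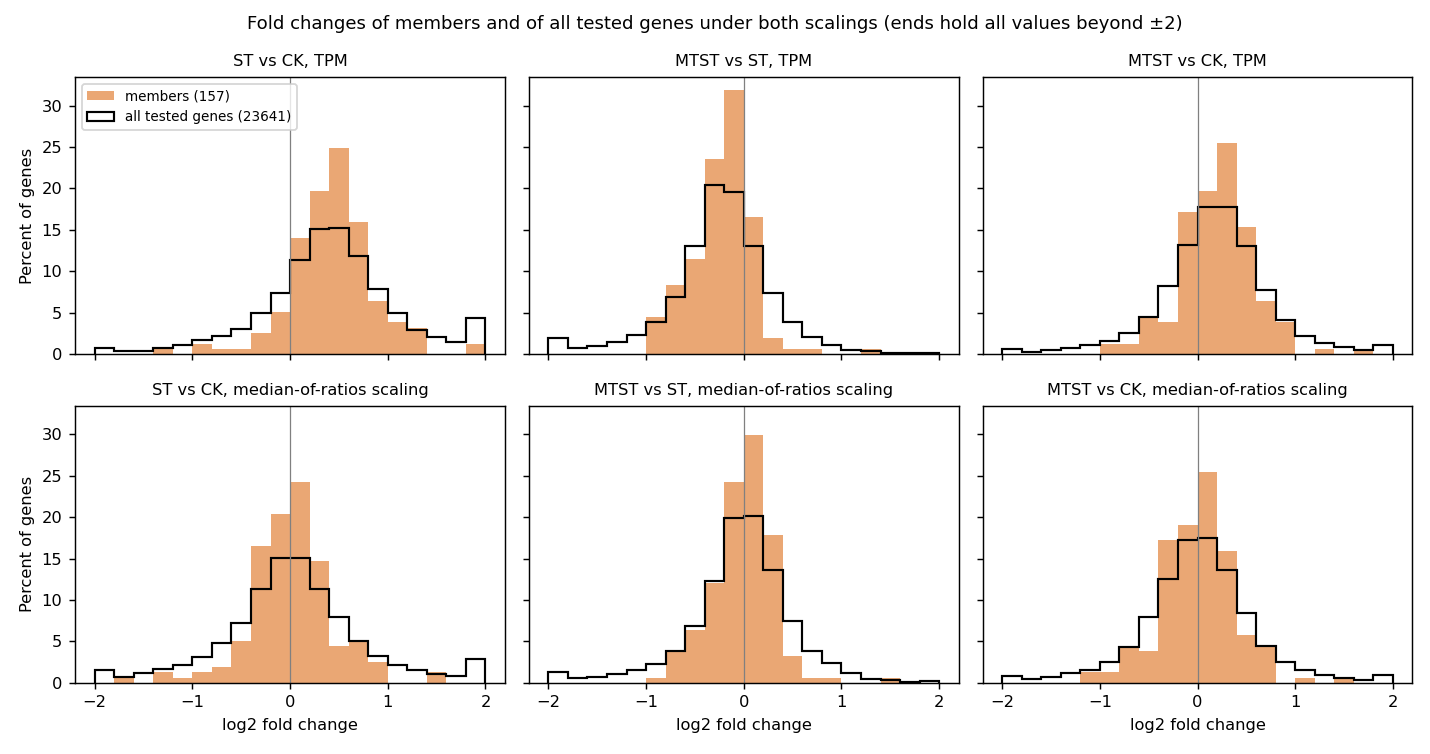
Percent of genes by log2 fold change in steps of 0.2, for the 157 members (filled) and all 23641 tested genes (outline); columns are ST vs CK, MTST vs ST and MTST vs CK, the upper row is on log2(TPM + 1) and the lower row after median-of-ratios scaling. The members peak near the same place as all genes, at a median of 0.43 for ST vs CK on TPM and 0.016 after the other scaling, and reach the outer steps less often.

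Among members that rose under salt, *Ej00033403*, annotated to ubiquitin protein ligase activity and ubiquitin ligase binding and also on the ER map, had 73.6, 78.9 and 64.2 TPM in ST, against 18.6, 14.98 and 25.4 TPM in CK. The lowest ST library was more than the highest CK library. For members given by identifier, no overlap between the groups was a condition for naming them in a comparison. The log2 fold change was 1.85 ± 0.17 (SE; adjusted p = 1.3e-05 by limma), and 1.41 with median-of-ratios scaling (adjusted p = 9.2e-05 by limma). *Ej00002323*, annotated to ubiquitin-protein transferase activity, had 12.3, 13.96 and 12.0 TPM in ST, against 2.13, 2.54 and 4.06 TPM in CK, so that the groups did not overlap. Its mean TPM in ST was 4.38 times that in CK. In the fit on log2(TPM + 1), the log2 fold change was 1.84 ± 0.17 (SE; adjusted p = 1.5e-05 by limma), and 1.46 with median-of-ratios scaling. These were the 2 members at least 2-fold higher in ST on both scales.

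The 5 members that fell in ST on both scales included the most abundant one, whose log2 fold change was −0.39 on TPM (adjusted p = 0.034 by limma) and −0.84 with median-of-ratios scaling. *Ej00019440*, annotated to SCF and Cul4-RING cullin complexes, to NEDD8 attachment and to ubiquitin ligase activity, had 4.70, 3.28 and 4.88 TPM in ST, against 14.4, 10.1 and 9.80 TPM in CK. It was seen through 25 to 39 reads in ST and 83 to 119 in CK, and the groups did not overlap. On the log2 scale it fell by 1.23 ± 0.17 (SE; adjusted p = 0.00018 by limma), with a value of −1.62 with median-of-ratios scaling. More abundant members in the same role lists and on the same other maps had means of 59.9 and 39.0 TPM in ST, against 48.4 and 34.6 TPM in CK. Their log2 fold changes were 0.30 and 0.17 on TPM, and −0.15 and −0.27 with median-of-ratios scaling. *Ej00066507*, annotated to ubiquitin ligase activity and ligase binding and placed in the endoplasmic reticulum and Golgi apparatus, had 15.4, 18.4 and 15.7 TPM in ST, against 36.1, 41.5 and 21.8 TPM in CK. Its CK libraries spread widely, and the lowest stood just above the highest ST library. The log2 fold change was −0.92 ± 0.19 (SE; adjusted p = 0.002 by limma). The remaining pair had no GO term, and were picked out after their values were seen. One, also on the RNA transport map, had 54.98, 46.2 and 42.6 TPM in ST, against 84.4, 105 and 76.3 TPM in CK. The other, on no other map, had 144, 122 and 124 TPM in ST, against 175, 183 and 150 TPM in CK. In both, the groups did not overlap, and the share of all tested genes without overlap was not counted.

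**Figure D2:**
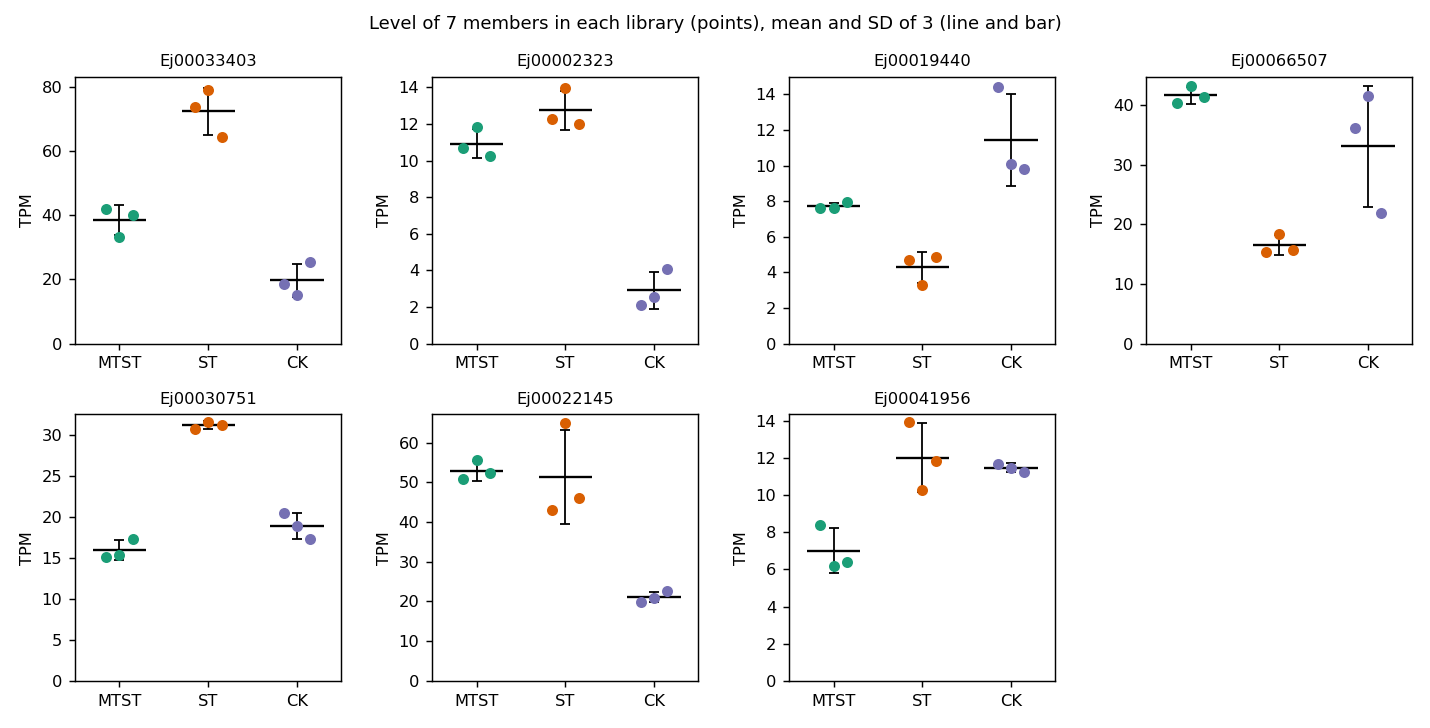
Level in TPM of 7 members in the 3 libraries each of MTST, ST and CK (points), with the mean (line) and SD (bar) of 3; axes start at 0 and differ between panels. *Ej00033403* stands at 64.2 to 78.9 TPM in ST, above MTST at 33.1 to 42.0 TPM and CK at 14.98 to 25.4 TPM, while *Ej00066507* is lowest in ST at 15.4 to 18.4 TPM.

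By role, the 6 members annotated as activating enzymes of ubiquitin-like proteins, 4 of them for SUMO and 2 for NEDD8, summed to 142 to 156 TPM in ST, against 101 to 120 TPM in CK. On TPM, 5 of the 6 were higher in ST, against 52.8% of all tested genes, and 1 with median-of-ratios scaling, against 22.8%. The largest rise was in a SUMO activating member, with 33.9, 32.9 and 32.8 TPM in ST, against 22.3, 19.97 and 20.1 TPM in CK (log2 fold change 0.65). No member carried the GO terms fixed for ubiquitin conjugating enzymes, and 36 members had no GO term at all. On TPM 23 of these 36 were higher in ST and 2 lower, against 52.8% and 10.6% of all tested genes. With median-of-ratios scaling 4 of the 36 were higher and 6 lower, against 22.8% and 23.4%.

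Ligases and transferases were the largest list, with 90 members, SUMO and NEDD8 transferases included. The transferase terms do not by themselves tell a ligase from a conjugating enzyme. Of the 90, 62 were higher and 3 lower in ST on TPM, against 52.8% higher and 10.6% lower in all tested genes, with a median log2 fold change of 0.43. With median-of-ratios scaling 19 were higher and 20 lower, against 22.8% and 23.4% of all tested genes, with a median of 0.011. The same background holds for the lists that follow. The 56 members annotated to cullin-RING complexes or ligase binding had 38 higher and 2 lower on TPM, and 10 higher and 12 lower on the other scale. Members can stand in several of these lists. After *Ej00033403*, the largest rise in that list was in a gene of 823 bases annotated to ligase activity and ligase binding, with 67.9, 67.4 and 65.0 TPM in ST, against 28.0, 24.96 and 28.6 TPM in CK. Its log2 fold change was 1.27 on TPM and 0.83 with median-of-ratios scaling. Among the 32 members annotated to a ubiquitin ligase complex, 22 were higher and 2 lower on TPM, and 4 higher and 8 lower with median-of-ratios scaling. The largest rise among them was in a zinc-binding ubiquitin-protein transferase with 16.5, 14.3 and 15.5 TPM in ST, against 6.49, 6.36 and 5.03 TPM in CK (log2 fold change 1.24). In each of these examples, picked for the size of their rise, the groups did not overlap. The share of all tested genes without overlap was not counted, while 52.8% of them were called higher in ST on TPM.

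The anaphase-promoting complex is a ligase of the cell cycle, and its 4 annotated members summed to 55.6 to 57.4 TPM in ST, against 33.7 to 41.6 TPM in CK. All 4 were higher in ST on TPM, with log2 fold changes between 0.51 and 0.61, while with median-of-ratios scaling they lay between 0.12 and 0.29, with adjusted p of 0.21 or more by limma. The most abundant of the 4 had 38.5, 36.9 and 40.5 TPM in ST, against 28.5, 24.3 and 23.8 TPM in CK. The SUMO list behaved unevenly. Of its 8 members, 4 were higher in ST on TPM, 3 of them activating enzymes, and the median log2 fold change was 0.24, under the 0.41 of all tested genes. With median-of-ratios scaling 1 SUMO member was higher and 3 were lower in ST, and the 3 lower ones were all SUMO transferases. The most abundant SUMO transferase had 139, 144 and 142 TPM in ST, against 129, 139 and 128 TPM in CK, with a log2 fold change of 0.11 on TPM (adjusted p = 0.2 by limma) and −0.34 on the other scale (adjusted p = 0.004 by limma).

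Of the 7 members annotated to NEDD8 attachment, 4 were higher and 1, *Ej00019440*, was lower in ST on TPM, while with median-of-ratios scaling 1 was higher and 3 were lower. The largest rise was in a NEDD8 transferase of 747 bases, with 90.3, 91.3 and 96.7 TPM in ST, against 50.6, 52.2 and 46.2 TPM in CK. Its log2 fold change was 0.89 on TPM and 0.44 with median-of-ratios scaling. Another NEDD8 transferase, of 1060 bases, had 69.5, 68.4 and 68.8 TPM in ST, against 67.5, 64.1 and 65.8 TPM in CK. Its log2 fold change was 0.07 on TPM (adjusted p = 0.49 by limma), and −0.38 with median-of-ratios scaling, where it passed as lower (adjusted p = 0.002 by limma).

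**Figure D3:**
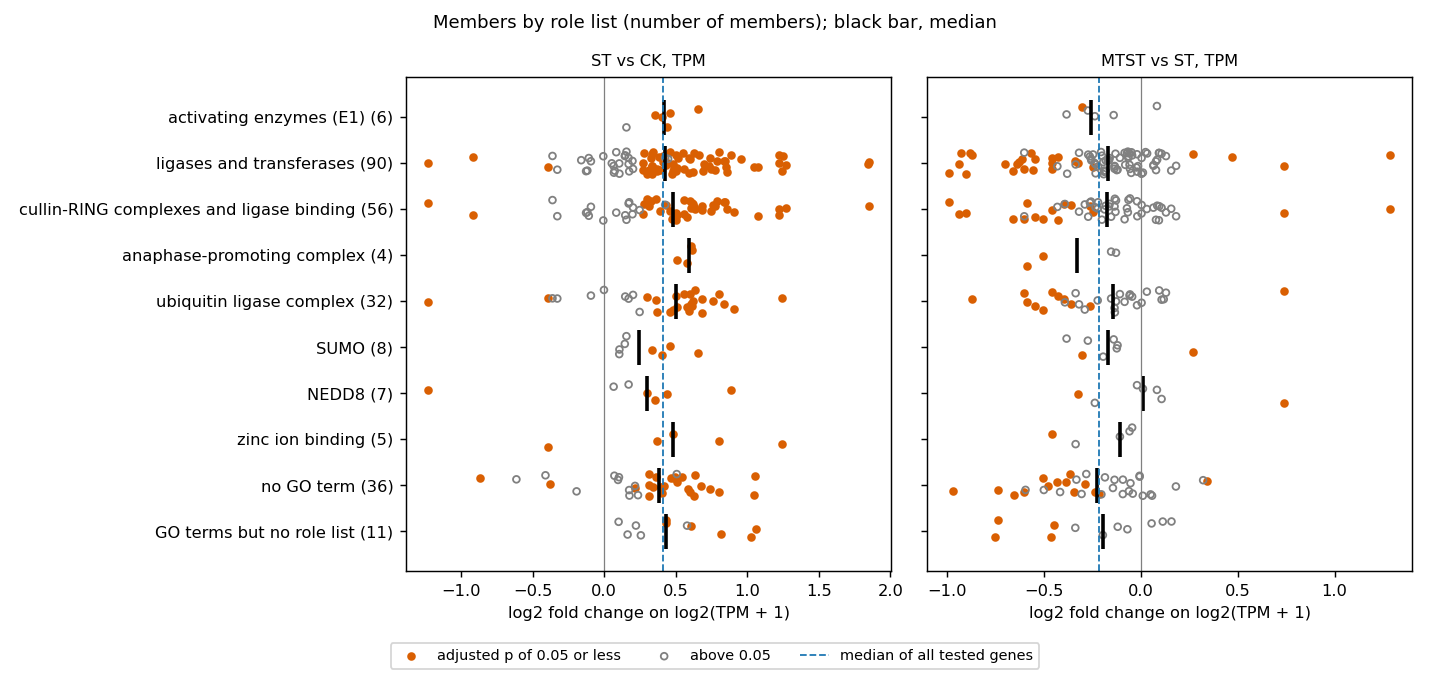
Log2 fold change on log2(TPM + 1) of each member by role list, for ST vs CK (left) and MTST vs ST (right); filled points passed an adjusted p of 0.05, black bars are list medians and the dashed line is the median of all tested genes (0.41 and −0.22). Most list medians lie near that line. On the left SUMO is at 0.24, NEDD8 at 0.30 and the anaphase-promoting complex at 0.60. On the right NEDD8 is at 0.012, zinc ion binding at −0.11 and the anaphase-promoting complex at −0.33.

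Some members share other maps. The 5 members on the plant circadian rhythm map, all annotated to ligase activity and cullin-RING complexes, had a median log2 fold change of −0.09 for ST against CK on TPM, where 1 was higher and the other 4 did not pass. With median-of-ratios scaling 1 was higher and 4 were lower in ST, with a median of −0.53. The one that was higher on both scales had 14.98, 14.01 and 12.9 TPM in ST, against 8.30, 7.57 and 6.38 TPM in CK. The 27 members also on the ER map had 21 higher and 1 lower on TPM, against 52.8% and 10.6% of all tested genes, and 6 higher and 5 lower on the other scale, against 22.8% and 23.4%. The 10 members on the nucleotide excision repair map had 7 higher and 1 lower on TPM, and 2 in each direction on the other scale. These lists, and the stress terms next, were added after the annotation had been seen. Of the 8 members annotated to response to abscisic acid, a hormone of water stress, 5 were higher in ST on TPM, near the background of 52.8%, while with median-of-ratios scaling 1 was higher and 3 were lower. Of the 4 annotated to response to salt stress, 2 were higher in ST on TPM, again near that share, while with median-of-ratios scaling 1 was higher and 2 were lower.

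Whether melatonin before salt altered these levels was asked by comparing MTST with ST. The comparison shares the ST libraries with the one above. By limma on TPM, 46 of the 157 members were lower in MTST, or 29.3%, against 29.8% of all tested genes, and 5 were higher, or 3.18%, against 7.9%. The median log2 fold change was −0.19 in members and −0.22 in all tested genes. With median-of-ratios scaling 17 members were lower, or 10.8%, against 13.7% of all tested genes, and 18 were higher, or 11.5%, against 15.1%. All 17 were also lower on TPM, and the 5 were higher on both scales.

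The 5 members higher in MTST on both scales were named or picked out after their values were seen. *Ej00066507* had 40.4, 43.2 and 41.4 TPM in MTST, against 15.4, 18.4 and 15.7 TPM in ST. Its mean TPM in MTST was 2.52 times that in ST. In the fit on log2(TPM + 1), it was higher in MTST by 1.29 ± 0.19 (SE; adjusted p = 0.00093 by limma). It was the only called member with a change of at least 1 in size on the log2(TPM + 1) scale, which understates the change of weakly expressed members. *Ej00019440* had 7.59, 7.64 and 7.95 TPM in MTST, against 4.70, 3.28 and 4.88 TPM in ST. The log2 difference was 0.74 ± 0.17 (SE; adjusted p = 0.0083 by limma). Both genes were thus at their lowest level in ST. The most abundant SUMO transferase had 165, 174 and 175 TPM in MTST, against 139, 144 and 142 TPM in ST (log2 fold change 0.27). A member with no GO term had 154, 154 and 139 TPM in MTST, against 121, 116 and 115 TPM in ST (log2 fold change 0.34). A ubiquitin-protein transferase of 901 bases had 29.9, 30.5 and 30.9 TPM in MTST, against 19.4, 23.8 and 22.1 TPM in ST (log2 fold change 0.47). In all 5 the groups did not overlap. For the named ones this was a condition of naming, and the share of all tested genes without overlap was not counted.

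Among members that fell in MTST, *Ej00030751*, a gene of 11681 bases annotated to ubiquitin protein ligase activity, had 15.1, 15.4 and 17.4 TPM in MTST, against 30.7, 31.7 and 31.3 TPM in ST. The log2 difference was −0.93 ± 0.09 (SE; adjusted p = 0.00015 by limma), and −0.70 with median-of-ratios scaling. It was read deeply, at 1761 to 2076 reads in MTST and 3200 to 3394 reads in ST. *Ej00033403* had 42.0, 33.1 and 39.9 TPM in MTST, against 73.6, 78.9 and 64.2 TPM in ST, a log2 difference of −0.90 ± 0.17 (SE; adjusted p = 0.003 by limma). Both genes had higher levels in ST than in either other group. A pair of further ligases over 11000 bases, picked out after their values were seen, fell by 0.87 and 0.88 on the log2 scale. One had 10.2, 9.26 and 11.7 TPM in MTST, against 20.2, 19.1 and 19.95 TPM in ST, and the other 14.7, 13.0 and 16.8 TPM in MTST, against 28.2, 28.0 and 27.8 TPM in ST.

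The fall in MTST went with gene length in all tested genes and not only in these ligases. For MTST against ST on TPM the median was −0.12 on the log2 scale in the 5394 tested genes of up to 1000 bases, −0.18 up to 2000, −0.26 up to 3000, −0.34 up to 5000 and −0.55 in the 393 longer ones. Members in the same length classes had medians of −0.14 (n = 34), −0.08 (n = 65), −0.29 (n = 29), −0.25 (n = 23) and −0.74 (n = 6). All of the 6 members over 5000 bases were annotated to ligase activity, and 5 of them fell on both scales. Over 11000 bases, all 15 tested genes, the 3 ligases among them, passed as lower in MTST on TPM, with a median of −0.88 in both. With median-of-ratios scaling the 3 ligases still passed, and 86.7% of the 15 genes. ST against CK had no such order, with medians of all tested genes between 0.38 and 0.42 in the 5 classes. MTST against CK did, with medians of all tested genes of 0.26, 0.24, 0.16, 0.05 and −0.14 from the shortest to the longest class, and of 0.16 (n = 34), 0.32 (n = 65), 0.12 (n = 29), 0.09 (n = 23) and −0.16 (n = 6) in members. With median-of-ratios scaling 47.3% of the genes over 5000 bases, and 4 of the 6 members, were lower in MTST than in CK. In MTST the fall of a long ligase therefore cannot be told apart from the shift of genes of its length, and what moves with length was not tested.

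**Figure D4:**
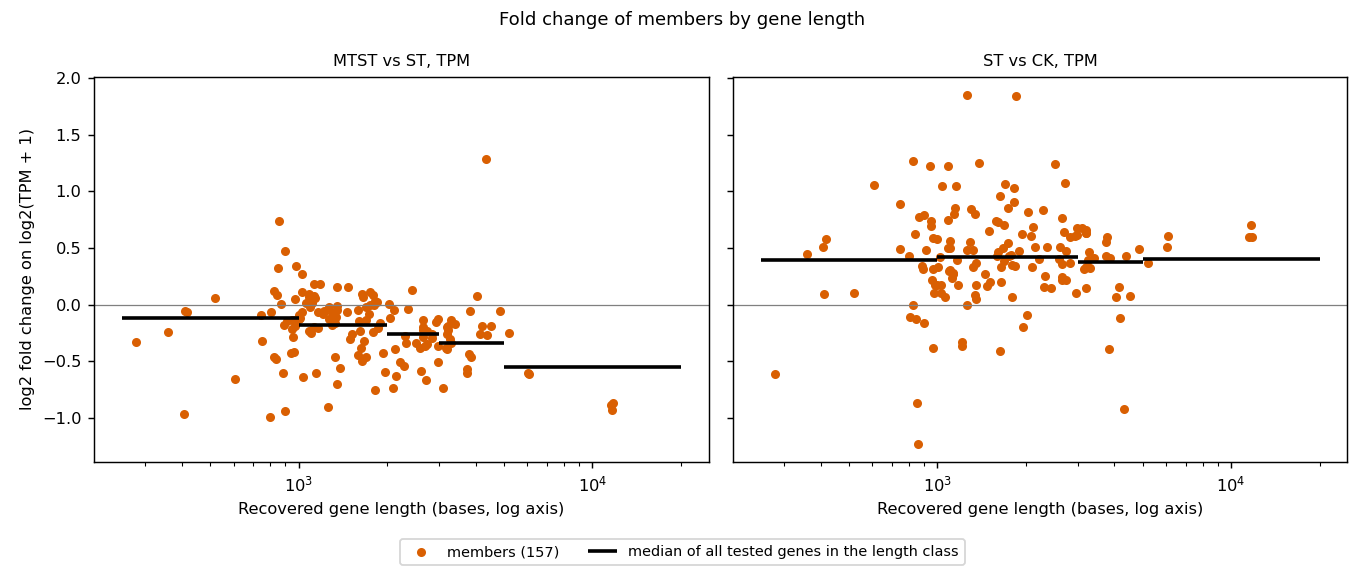
Log2 fold change on log2(TPM + 1) of the 157 members (points) against gene length recovered from the FPKM values (log axis), with the median of all tested genes in 5 length classes (lines), for MTST vs ST (left) and ST vs CK (right). On the left the class medians fall to −0.55 above 5000 bases and the 3 members over 11000 bases stand near −0.88; on the right the lines stay between 0.38 and 0.42.

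The role lists had similar medians for MTST against ST, with exceptions in small lists. Of the 90 ligases and transferases 22 were lower and 4 higher in MTST on TPM, against 29.8% lower and 7.9% higher in all tested genes, and 12 were lower and 12 higher with median-of-ratios scaling, against 13.7% and 15.1%. Of the 56 members of cullin-RING complexes or ligase binding, 14 were lower and 2 higher on TPM, and 5 lower and 9 higher on the other scale. Of the 4 members of the anaphase-promoting complex 2 were lower on TPM, with a list median of −0.33, while with median-of-ratios scaling the median was −0.14 and the adjusted p were 0.086 or more by limma. In the NEDD8 list the median was 0.012 on TPM, where 1 of 7 was higher and 1 lower, and 0.25 with median-of-ratios scaling, where 4 were higher. The member that fell was the NEDD8 transferase that had risen most in ST, with 68.0, 72.4 and 82.2 TPM in MTST, against 90.3, 91.3 and 96.7 TPM in ST. Its log2 fold change was −0.32 on TPM (adjusted p = 0.018 by limma) and −0.09 on the other scale (adjusted p = 0.49 by limma).

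MTST was also set against CK, from which it differs in both melatonin and salt, and this comparison shares its libraries with both others. On TPM, 62 of the 157 members were higher in MTST, or 39.5%, against 29.7% of all tested genes, and 8 were lower, or 5.1%, against 10.9%. Those 8 were 5 without CK replicate 1, 4 without CK replicate 2 and 4 without MTST replicate 2. The median log2 fold change was 0.24 in members and 0.19 in all tested genes. With median-of-ratios scaling 25 were higher, or 15.9%, against 17.1% of all tested genes, and 20 were lower, or 12.7%, against 18.7%. *Ej00002323* had 10.7, 11.8 and 10.3 TPM in MTST, against 2.13, 2.54 and 4.06 TPM in CK. The log2 difference of MTST from CK was 1.64 ± 0.17 (SE; adjusted p = 8.1e-05 by limma), and that of MTST against ST was −0.20 (adjusted p = 0.37 by limma). *Ej00022145*, annotated to ubiquitin ligase activity and ligase binding, had 50.7, 55.7 and 52.3 TPM in MTST, 43.1, 64.8 and 46.0 TPM in ST and 19.97, 20.9 and 22.6 TPM in CK. For MTST against CK the log2 difference was 1.29 ± 0.14 (SE; adjusted p = 8.6e-05 by limma), 1.22 for ST against CK and 0.07 for MTST against ST (adjusted p = 0.73 by limma). In both genes every salt-treated library, with or without melatonin, was above every CK library.

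Of the members lower in MTST than in CK, *Ej00041956*, a ligase annotated to negative regulation of the response to water deprivation, had 8.38, 6.20 and 6.42 TPM in MTST, 13.9, 10.2 and 11.9 TPM in ST and 11.7, 11.5 and 11.2 TPM in CK. The MTST libraries were under all others. For MTST against CK the log2 difference was −0.65 ± 0.14 (SE; adjusted p = 0.0049 by limma) and −0.70 for MTST against ST (adjusted p = 0.0042 by limma), while that for ST against CK was 0.05 on TPM (adjusted p = 0.75 by limma) and −0.36 with median-of-ratios scaling (adjusted p = 0.047 by limma). It was the only member with that annotation, and was seen through 83 to 113 reads in MTST. *Ej00019440* was at 7.59 to 7.95 TPM in MTST, against 9.80 to 14.4 TPM in CK, a log2 difference of −0.49 ± 0.17 (SE; adjusted p = 0.042 by limma). That call was lost in 8 of 16 alternative settings, with adjusted p between 0.0089 and 0.17, the highest without CK replicate 1, where the value was −0.33. The most abundant member was lower in MTST than in CK by a log2 fold change of −0.45 (adjusted p = 0.03 by limma), and by −0.66 with median-of-ratios scaling.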

How the data were processed

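RNA sequencing of 9 leaf libraries was analysed. Per the labels and the study's methods, the authors aligned reads to a loquat genome with HISAT2, used Rsubread for counting and deposited the result as FPKM by gene. Versions, the strand setting and how reads shared by near-identical genes were handled: not given in the sources used here. The deposited table also holds group means and the authors' own comparisons (log2 fold changes, p-values and calls), which were not used. All 9 FPKM columns were mapped to samples by name.

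FPKM was rescaled to TPM. FPKM values are whole multiples of 1 read, so library totals were inferred from them. A gene length and whole reads were then recovered for 31458 of 31458 genes above 0 (tolerance 1e-05 reads). For genes with few reads both could be off by a common factor. Log2(TPM + 1) was fitted with limma 3.58.1 in R 4.3.3 (mean-variance trend, Benjamini-Hochberg adjustment over all genes) for the 23641 genes that reached 1 TPM in 3 or more libraries, with group as the single term. Fold changes on this scale understate those of weakly expressed genes. Alternatives were a pseudocount of 0.1, no filter, median-of-ratios scaling, FPKM as deposited, limma-voom on recovered reads, the 6 libraries compared, a replicate block and leaving out each library. Figures were drawn with matplotlib 3.10.9 in Python 3.11.15.

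The members and lists were chosen with earlier results of these data known. Named were, per comparison, up to 2 members in each direction with the largest log2 fold change among those called on TPM and with median-of-ratios scaling, with a mean of at least 5 TPM, no overlap between the groups and a role list.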

Additional observations from a re-analysis of the deposited data

How the results depend on the processing

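Scaling was the choice that mattered. With median-of-ratios scaling the members higher and lower were 28 and 27 for ST against CK, 18 and 17 for MTST against ST and 25 and 20 for MTST against CK, and the median log2 fold changes of members were 0.016, 0.032 and 0.033, the second with its sign turned. With FPKM as deposited the median was 0.35 for ST against CK and −0.11 for MTST against ST, and with limma-voom on recovered reads it was −0.12 for MTST against ST. Leaving out 1 library gave 96 to 108 higher and 4 to 7 lower for ST against CK, 5 higher in each case and 31 to 47 lower for MTST against ST, and 46 to 64 higher and 4 to 10 lower for MTST against CK. That last count was 5 without CK replicate 1, 4 without CK replicate 2 and 4 without MTST replicate 2. Medians moved between 0.41 and 0.46, −0.21 and −0.16, and 0.19 and 0.26. Beyond the values given here, the counts stayed within 1.5 times and the medians within 0.054, the SD between libraries. Each of the named differences kept its direction and its call in all 16 alternatives, except *Ej00019440* for MTST against CK. A call with median-of-ratios scaling was a condition for naming, so that alternative could not lose it. The named members were also chosen for large changes in these same libraries.

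The values showed no sign that the replicate numbers pair the libraries. Same-numbered libraries correlated between −0.15 and 0.08 in their deviations from the group means, and 5 of 18 best matches carried the same number. With the replicate block the members higher and lower were 106 and 5, 5 and 41, and 57 and 7 for the 3 comparisons. Genes with few reads, a lack of gene names and unknown handling of shared reads limit statements on single members.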

Other observations

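Other genes of the ubiquitin system and of protein quality control were examined by count. Of 92 genes on the map of the proteasome, the complex that degrades ubiquitinated proteins, 84 were tested, and 77 were higher and 1 lower in ST than in CK on TPM, with a median log2 fold change of 0.59. For ST against CK, 52.8% of all tested genes were higher and 10.6% lower on TPM, and 22.8% higher and 23.4% lower with median-of-ratios scaling. That is the background for each list here in that comparison. With median-of-ratios scaling 27 were higher and 2 lower, with a median of 0.16, whereas the 157 members of the ubiquitin map split 28 to 27 on that scale. In sum, the proteasome genes stood at 4376 to 4450 TPM in ST, against 2921 to 3004 TPM in CK. In MTST against ST, 37 of the 84 proteasome genes were lower and 0 higher on TPM, against 29.8% and 7.9% of all tested genes. In that comparison 9 were lower and 2 higher with median-of-ratios scaling, against 13.7% and 15.1%. Of 53 tested genes annotated to removal of ubiquitin, 38 were higher and 1 lower in ST than in CK on TPM, and 7 higher and 8 lower with median-of-ratios scaling. Of 231 tested genes on the ER map that were not members, 153 were higher and 13 lower in ST than in CK on TPM, and 41 and 36 on the other scale. The difference between these lists was not tested.

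Of the 46 genes on the ubiquitin map that were under the FPKM minimum, 24 were above 0 in some library and summed to 8.94 to 11.9 TPM in MTST, 10.3 to 11.9 TPM in ST and 7.66 to 9.06 TPM in CK. Only 5 of them reached the TPM minimum of the fit, and 1 was higher in ST than in CK on TPM.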
